A study of Mus musculus with 11 samples.

Results

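The genes described here are the neurexophilins Nxph1, Nxph2, Nxph3 and Nxph4 and the neurexins Nrxn2 and Nrxn3, measured as RNA in the cortex of mouse embryos with a conditional knockout of the chromatin remodeller Chd8 and in controls. They were taken from the deposited expression table by gene symbol and are 6 of its 24138 loci. Each of the 6 symbols had a locus of its own, joined to no other symbol. The set was selected on the FPKM difference between Chd8 conditional knockout (cKO) and control libraries in these same data, so that difference is given for its members as a description. Counts of calls among the members are printed once beside those of all loci, with nothing read from them.

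Neurexins are presynaptic membrane proteins that reach across the synaptic cleft to partners on the receiving neuron, and long alpha and short beta forms are made from separate promoters of the same gene. Neurexophilins are small secreted glycoproteins, and Nxph1 and Nxph3 are known to bind alpha-neurexins. In mouse cortex, Nxph1 is known as a gene of inhibitory interneurons, and Nxph3 and Nxph4 are known from neurons of the deepest layers, including the subplate, the lowest and earliest-born part of the cortical wall.

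The cKO group held 2 libraries of E14.5 cortex labelled Chd8 c/c with Emx1-cre, and the control group held 3 libraries of the same stage and tissue with no Cre label. The genotype given for control replicate 1 was Chd8 c/+, and for the other controls it was Chd8 c/c. Emx1-Cre acts in progenitors of the dorsal telencephalon and their descendants, while most cortical interneurons are born in the ventral telencephalon and migrate in, outside that lineage. Whether embryos were pooled for a library is not given in the labels, and the spread between libraries may be technical. A protocol text of the expression samples names Eed in place of Chd8. The targeted gene, Chd8, had 19.3 and 15.1 FPKM in the cKO libraries, against 31.5, 30.02 and 31.8 FPKM in controls 1 to 3. FPKM is a level per kilobase of transcript and per number of fragments sequenced, so levels may be compared between genes. The 5 libraries summed to between 418191 and 484296 FPKM, their depth is unknown, and 12672 loci whose mean reached 1 FPKM were tested.

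Sequences upstream of the members are shown where the promoter reference used here held them, so availability and not expression decided which genes are shown. RefSeq promoter windows, running from 250 bases before to 50 bases after a transcript start in GRCm38.p6, were matched for 3 of the 6 genes, Nxph1, Nxph2 and Nrxn3, with 3 windows for Nrxn3. Capitals mark matches, on either strand, to any of 6 short motifs. These were TAATTA for the homeobox core, TATAAA for the TATA box, CCAAT for the box of that name, GGGCGG for the GC box, TGACGTCA for the cyclic AMP response element and CAGCTG for a form of the E-box. The windows lie on the plus strand at chr6:8949769-8950068 for Nxph1, chr2:23320996-23321295 for Nxph2 and chr12:89812233-89812532 for the most downstream of the Nrxn3 windows.
Nxph1: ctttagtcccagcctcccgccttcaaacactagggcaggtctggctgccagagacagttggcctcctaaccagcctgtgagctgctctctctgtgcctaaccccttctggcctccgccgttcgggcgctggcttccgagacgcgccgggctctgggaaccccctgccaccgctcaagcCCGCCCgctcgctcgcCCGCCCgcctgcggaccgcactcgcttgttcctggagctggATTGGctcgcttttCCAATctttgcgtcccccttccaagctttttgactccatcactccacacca
Nxph2: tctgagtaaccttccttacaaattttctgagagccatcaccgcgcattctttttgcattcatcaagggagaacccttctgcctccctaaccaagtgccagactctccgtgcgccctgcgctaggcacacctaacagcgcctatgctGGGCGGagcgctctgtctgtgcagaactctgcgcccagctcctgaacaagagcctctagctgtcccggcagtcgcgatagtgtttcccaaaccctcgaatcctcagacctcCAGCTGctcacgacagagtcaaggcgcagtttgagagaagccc
Nrxn3: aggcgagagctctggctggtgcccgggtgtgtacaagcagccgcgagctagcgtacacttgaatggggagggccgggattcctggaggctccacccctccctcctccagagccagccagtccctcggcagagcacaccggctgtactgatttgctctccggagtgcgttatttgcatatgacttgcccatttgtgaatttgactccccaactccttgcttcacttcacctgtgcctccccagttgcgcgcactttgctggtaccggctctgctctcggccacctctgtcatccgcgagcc

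The Nxph1 window was 64% G and C with 21 CpG dinucleotides, against medians of 52.7% and 7 over all 32851 RefSeq windows of this length. It held 2 matches to GGGCGG, lying on the other strand, and 2 to CCAAT. The Nxph2 window held 1 GC box and 1 CAGCTG, with 56% G and C. The printed Nrxn3 window, with 60.7% G and C, held none of the 6 motifs, and among the other Nrxn3 windows 1 match to GGGCGG was found. No marked matches overlapped. GGGCGG occurs in 35.7% of all windows, CCAAT in 37.4%, CAGCTG in 16.3%, TATAAA in 13.6%, TAATTA in 5.29% and TGACGTCA in 1.79%. The last 3 of these were in none of the 5 windows of the family. A match describes letters in the window and is not a binding site.

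The main pattern was a shift in which neurexophilin was the most abundant. Nxph4 was the highest neurexophilin in each of the 3 control libraries, and Nxph1 was the highest in both cKO libraries. Nxph1, Nxph2 and Nrxn3 had higher values in both cKO libraries than in any control, Nxph4 had lower values, and Nxph3 and Nrxn2 overlapped between the groups. As context, 13.4% of tested loci had both cKO libraries above every control and 15.6% had both below.

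Nxph4 (chromosome 10, 127525473 to 127534559 in GRCm38.p6) had 15.3 and 14.1 FPKM in cKO replicates 1 and 2, against 49.1, 40.3 and 27.3 FPKM in control replicates 1 to 3. Both cKO libraries lay far below the lowest control and within about 1 FPKM of each other, while the controls spread widely. The mean was 14.7 ± 0.811 FPKM in cKO (SD, n = 2) and 38.9 ± 10.9 FPKM in control (SD, n = 3), or 37.8% of the control mean. On the log2(FPKM + 1) scale used for all differences below, which understates those of low genes, the difference of cKO minus control was -1.31 (SE 0.26).

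Nxph1, the founding member of the family (chromosome 6, 8948614 to 9249619), had 21.2 and 20.8 FPKM in the cKO libraries, against 16.7, 6.86 and 11.3 FPKM in controls 1 to 3. Control replicate 2 was the lowest and control replicate 1 the nearest to the cKO. The mean was 21.03 ± 0.307 FPKM in cKO and 11.6 ± 4.91 FPKM in control, or 1.81 times the control mean, with a log2 difference of 0.88 (SE 0.34).

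Nxph2, the least abundant of the 6 genes (chromosome 2, 23321246 to 23401986), had 3.74 and 4.21 FPKM in the cKO libraries, against 0.536, 1.15 and 1.59 FPKM in controls 1 to 3. The lowest cKO library was more than 2 FPKM above the highest control. The mean was 3.98 ± 0.331 FPKM in cKO and 1.09 ± 0.528 FPKM in control, or 3.65 times the control mean, with a log2 difference of 1.28 (SE 0.27). Its mean over the 5 libraries lay at the percentile 9.96 of tested loci, so its fold rests on low levels.

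Nxph3 (chromosome 11, 95509845 to 95514565) had 14.1 and 5.91 FPKM in the cKO libraries, against 9.27, 24.2 and 11.6 FPKM in controls 1 to 3. The groups overlapped, and the spread inside each group was as wide as the difference between them. The mean was 9.99 ± 5.77 FPKM in cKO and 15.03 ± 8.03 FPKM in control, with a log2 difference of -0.54 (SE 0.50). Nxph3 was highest in control replicate 2, the library where Nxph1 and Nrxn3 were lowest. Without cKO replicate 2 the log2 difference was 0.02.

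Among the neurexins, Nrxn3 (chromosome 12, 88722701 to 90334935), a long gene with alpha and beta forms, had 19.9 and 21.7 FPKM in the cKO libraries, against 19.5, 5.82 and 12.6 FPKM in controls 1 to 3. The lower cKO library exceeded control replicate 1 by less than 1 FPKM, so the absence of overlap rests on a narrow gap. The mean was 20.8 ± 1.29 FPKM in cKO and 12.6 ± 6.82 FPKM in control, or 1.65 times the control mean, with a log2 difference of 0.81 (SE 0.46). Without control replicate 2 it was 0.38. The locus values do not separate alpha from beta transcripts.

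Nrxn2 (chromosome 19, 6418756 to 6533217), also a gene with alpha and beta forms, had 65.5 and 38.1 FPKM in the cKO libraries, against 76.97, 41.4 and 45.7 FPKM in controls 1 to 3. Replicate 1 of each group was high, and the groups overlapped over most of their range. The mean was 51.8 ± 19.4 FPKM in cKO and 54.7 ± 19.4 FPKM in control, with a log2 difference of -0.07 (SE 0.35). The sign turned without cKO replicate 2 (0.31) and without control replicate 1 (0.196).

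**Figure D1:**
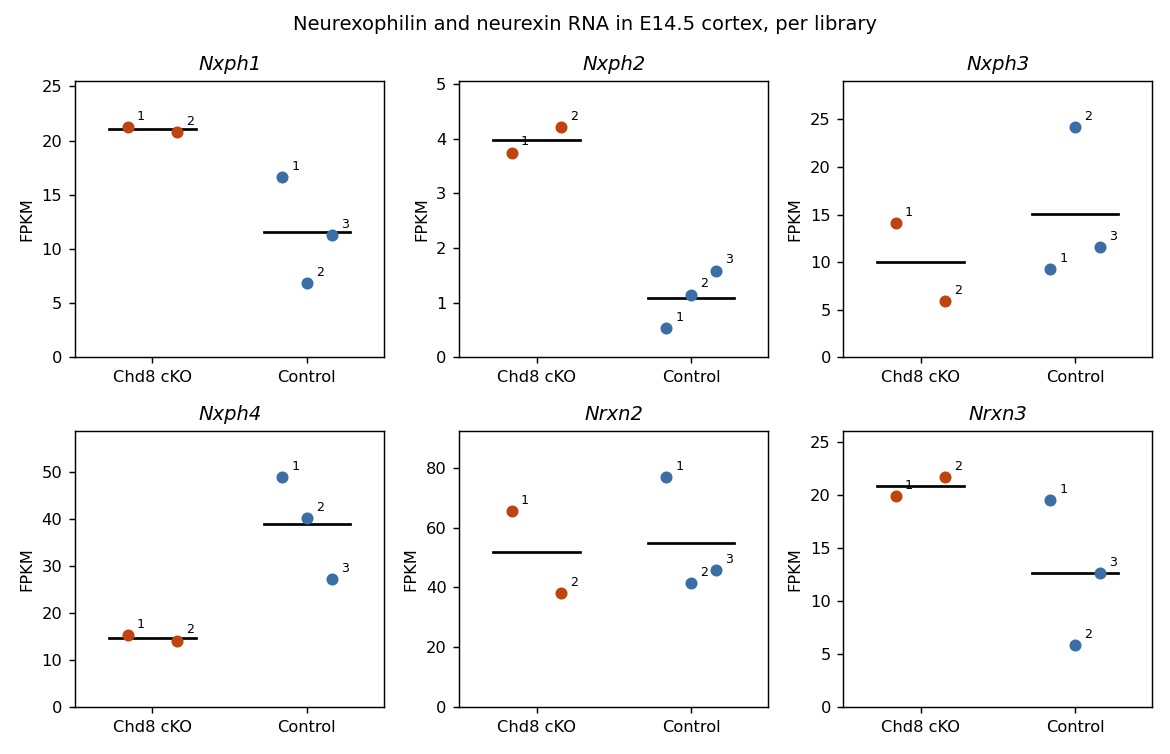
FPKM of each gene in each library (points, numbered by replicate) for Chd8 cKO on the left and Control on the right of every panel, with the group mean as a line and a linear axis from 0. Nxph4 sits at 15.3 and 14.1 FPKM in cKO under every control, while Nxph3 and Nrxn2 overlap between the groups.

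In the fit across all 12672 loci (limma with Benjamini-Hochberg adjustment), 0 of the 6 genes had an adjusted p under 0.05, where 0.0473% of all tested loci did. At an unadjusted p under 0.05 there were 3, Nxph1, Nxph2 and Nxph4, where 7.45% of all tested loci were found. The loci that passed the adjusted threshold all had Snord, Snora or Mir symbols, for small RNAs. Each had 0 FPKM either in every cKO library or in every control. The targeted gene, Chd8, did not pass either (adjusted p = 0.575 in limma), so a gene that failed to pass may still differ. Of the 6 genes, 4 were marked significant in the authors' deposited table, where 4.21% of the loci tested there were marked. These were Nxph4 with a log2 fold change of -1.40 and a q-value of 0.00331, Nxph2 with 1.87 and 0.00331, Nrxn3 with 0.72 and 0.0102, and Nxph1 with 0.86 and 0.0229, all from the authors' deposited table. Since the set was selected on this contrast, nothing is read from these counts.

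Nxph4 made up 28.1% and 31.3% of the summed neurexophilin FPKM in cKO replicates 1 and 2, against 64.96%, 55.6% and 52.7% in controls 1 to 3. Nxph1 made up 39.1% and 46.2% in the cKO libraries, against 22.1%, 9.46% and 21.8% in controls 1 to 3. Neither share overlapped between the groups, but the shares are another form of the FPKM values on which the set was selected. Nxph2 made up 6.89% and 9.35% in the cKO libraries, against 0.71%, 1.58% and 3.06% in controls 1 to 3, and the Nxph3 share overlapped. The summed level of the family was 54.3 and 45.1 FPKM in the cKO libraries, against 75.5, 72.5 and 51.8 FPKM in controls 1 to 3, so cKO replicate 1 lay above control replicate 3 in total while its make-up differed.

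**Figure D2:**
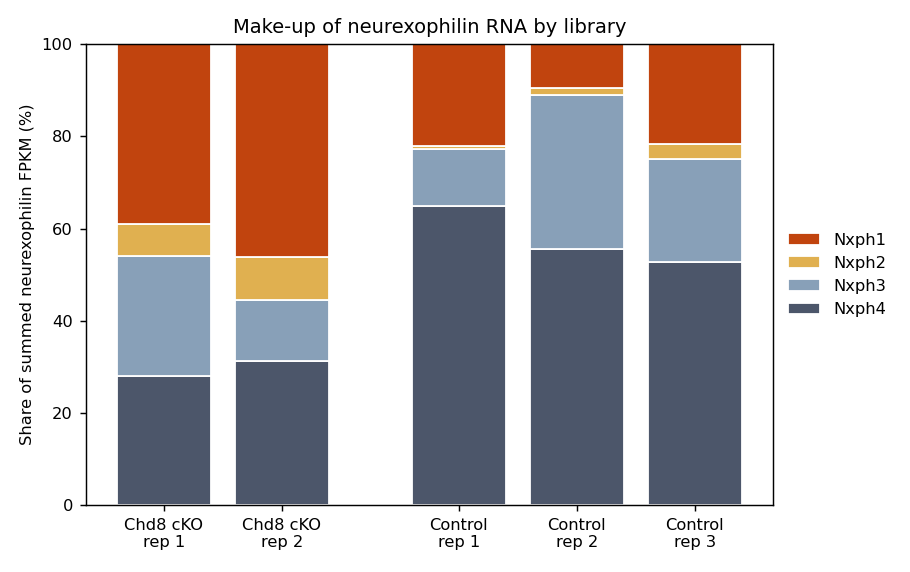
Stacked bars give the percentage of the summed neurexophilin FPKM that came from Nxph1 (top), Nxph2, Nxph3 and Nxph4 (bottom) in each library, with cKO libraries on the left and controls on the right. Nxph4 is the largest part of every control, at 52.7% to 64.96%, and Nxph1 the largest part of both cKO libraries, at 39.1% and 46.2%.

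A ratio within a library does not depend on its scaling. The ratio of Nxph4 to Nxph1 was 0.718 and 0.678 in cKO replicates 1 and 2, against 2.95, 5.88 and 2.42 in controls 1 to 3. Both cKO libraries were below every control for Nxph4 and above every control for Nxph1. The lack of overlap in their ratio follows from those values and adds no support. The ratio of Nrxn2 to Nrxn3 was 3.30 and 1.76 in the cKO libraries, against 3.96, 7.12 and 3.64 in controls 1 to 3, and the gap between cKO replicate 1 and the lowest control was small. The ratio of Nxph4 to Nxph3, both genes of deep-layer neurons, was 1.08 and 2.39 in the cKO libraries, against 5.29, 1.67 and 2.35 in controls 1 to 3, with overlap.

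The order of the levels followed from these values. In the cKO libraries Nrxn2 was the highest at a mean of 51.8 FPKM, followed by Nxph1 at 21.03 and Nrxn3 at 20.8 FPKM, which changed places between the 2 libraries. Nxph4 at 14.7 FPKM, Nxph3 at 9.99 FPKM and Nxph2 at 3.98 FPKM came next, and the highest Nxph3 value, 14.07 FPKM, lay just under the lowest Nxph4 value, 14.12 FPKM. In the controls Nrxn2 at 54.7 FPKM was followed by Nxph4 at 38.9 FPKM, with Nrxn2 the higher in each of the 3 libraries though their ranges overlapped. Nxph3 at 15.03, Nrxn3 at 12.6 and Nxph1 at 11.6 FPKM had overlapping ranges and could not be ordered, and Nxph2 at 1.09 FPKM was below all of them.

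Markers of cell types were set beside the family because bulk RNA of whole cortex cannot tell fewer cells of a type from less RNA per cell. The 16 interneuron genes, such as Dlx2, Sp8, Sp9 and Npy, summed to 1257 and 1081 FPKM in the cKO libraries, against 592.7, 545.9 and 876.4 FPKM in controls 1 to 3. All 16 had a positive log2 difference (median 0.85, against -0.02 over all tested loci), 12 were above every control in both cKO libraries, and 0 passed over all loci in limma (7 at an unadjusted p under 0.05). Of all tested loci, 13.4% were above every control in both cKO libraries and 7.45% had an unadjusted p under 0.05 in limma. Dlx2, a homeobox gene of ventral progenitors, averaged 110.4 ± 9.26 FPKM in cKO and 57.7 ± 11.2 FPKM in control. Npy, a peptide of a class of interneurons, averaged 80.1 ± 5.18 FPKM in cKO and 42.8 ± 10.5 FPKM in control. Of the 16 genes, 8 were marked significant in the authors' deposited table (Dlx5, Gad1, Gad2, Lhx6, Sst, Sp8, Sp9 and Maf), each with a higher mean in cKO. Of all loci tested there, 4.21% were marked. The 10 striatal genes, markers of the ventral telencephalon as well, summed to 231.98 and 194.3 FPKM in the cKO libraries, against 180.02, 132.1 and 160.3 FPKM in controls 1 to 3. Of these 8 had a positive log2 difference (median 0.44), 0 passed over all loci in limma (2 at an unadjusted p under 0.05), and Tac1 and Isl1 were marked in the authors' deposited table. The summed levels of both lists lay on the same side of the controls as Nxph1, Nxph2 and Nrxn3, and their part in those values was not tested.

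Levels were also expressed relative to the summed interneuron, deep-layer and pan-neuronal lists, and these 3 scales were all chosen after the values were seen. Differences on these scales are of log2 percentages without an added 1, so they do not compare directly with those on log2(FPKM + 1). For Nxph2, a low gene, the difference was 1.28 on log2(FPKM + 1) and 1.89 on log2(FPKM + 0.1). Relative to the interneuron list, the differences of Nxph1 and Nrxn3 were smaller. Division by this sum shifts the log2 difference of every gene by the same amount, so the shift is not particular to them. Sst was the largest part of the sum, at 478 and 315.7 FPKM in the cKO libraries, against 181.2, 138.8 and 292.6 FPKM in controls 1 to 3. Nxph1 was 1.69% and 1.93% of the summed interneuron FPKM in the cKO libraries, against 2.81%, 1.26% and 1.29% in controls 1 to 3, with a log2 difference of 0.12. Nrxn3 was 1.58% and 2.01% in the cKO libraries, against 3.28%, 1.07% and 1.44% in controls 1 to 3, with a log2 difference of 0.06. For both genes the groups overlapped through control replicate 1 alone, the highest library. Without it the differences on this scale were 0.50 for Nxph1 and 0.53 for Nrxn3, with both cKO libraries above both remaining controls. Nxph2 was 0.298% and 0.39% in the cKO libraries, against 0.0904%, 0.21% and 0.181% in controls 1 to 3, without overlap and with a log2 difference of 1.17, or 0.81 without control replicate 1.

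Genes of deep-layer and subplate neurons, the known site of Nxph4, showed no common direction. The 12 listed genes summed to 373.2 and 300.3 FPKM in the cKO libraries, against 275.2, 388.3 and 299.2 FPKM in controls 1 to 3. Of the 11 tested, 6 had a positive and 5 a negative log2 difference (median 0.05), and 0 passed over all loci in limma (1 at an unadjusted p under 0.05). Tbr1, which specifies early-born corticothalamic neurons, averaged 136.1 ± 2.03 FPKM in cKO and 93.7 ± 27.7 FPKM in control, and Bcl11b, a factor of subcortical projection neurons, 65.9 ± 16.2 FPKM in cKO and 50.1 ± 0.281 FPKM in control. Both lay on the other side of the controls from Nxph4. Of the listed genes, Fezf2, Sox5 and Lpar1 were marked significant in the authors' deposited table, and all 3 had lower means in cKO, as Nxph4 had. Fezf2, which specifies subcortical projection neurons, had 55.5 and 27.5 FPKM in the cKO libraries, against 35.97, 105.1 and 63.3 FPKM in controls 1 to 3. Sox5, a factor of subplate and deep-layer neurons, had 29.5 and 10.8 FPKM in the cKO libraries, against 19.9, 42.4 and 27.4 FPKM in controls 1 to 3. For both genes the groups overlapped. Lpar1, a lysophosphatidic acid receptor gene used as a subplate marker, averaged 2.96 ± 0.254 FPKM in cKO and 5.67 ± 1.34 FPKM in control. Crym, a thyroid hormone binding protein, averaged 8.75 ± 0.830 FPKM in cKO and 13.5 ± 5.15 FPKM in control, and its groups overlapped. Of the 11 tested genes, 3 (Tbr1, Bcl11b and Ctgf) were above every control in both cKO libraries, and 1 (Lpar1) was below. Of all tested loci, 13.4% were above and 15.6% below, so nothing is read from these counts. Nxph4 was 4.09% and 4.70% of the summed deep-layer FPKM in the cKO libraries, against 17.8%, 10.4% and 9.13% in controls 1 to 3, with a log2 difference of -1.44.

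The 14 pan-neuronal genes summed to 3522 and 2550 FPKM in the cKO libraries, against 3798, 2573 and 3107 FPKM in controls 1 to 3, and the groups overlapped. Relative to that sum, Nxph4 was 0.433% and 0.554% in the cKO libraries, against 1.29%, 1.57% and 0.879% in controls 1 to 3, while Nrxn2 was 1.86% and 1.49% in the cKO libraries, against 2.03%, 1.61% and 1.47% in controls 1 to 3. The groups did not overlap for Nxph4 and overlapped for Nrxn2, whose log2 difference on that scale was -0.02. On that scale, which has no added 1, the log2 difference was 1.01 for Nxph1, 2.06 for Nxph2 and 0.94 for Nrxn3, each without overlap between the groups.

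The summed level of intermediate progenitor genes, which mark dividing precursors of projection neurons, lay on the same side of the controls as Nxph4. The 9 listed genes summed to 351.7 and 305.96 FPKM in the cKO libraries, against 373.2, 734.2 and 488.3 FPKM in controls 1 to 3. The groups did not overlap, but the gap between cKO replicate 1 and control replicate 1 was narrow, and control replicate 2 was far the highest. Of the 9, 2 had a positive and 7 a negative log2 difference (median -0.38), and 0 passed over all loci in limma (4 at an unadjusted p under 0.05). Those 4, Eomes, Neurog1, Neurog2 and Gadd45g, were also marked in the authors' deposited table and were below every control in both cKO libraries, with means of 23.9% to 46.4% of control. Of all tested loci, 15.6% were below every control in both cKO libraries and 7.45% had an unadjusted p under 0.05 in limma. Of all loci tested by the authors, 4.21% were marked. The 9 meningeal genes, at low levels, summed to 14.46 and 17.2 FPKM in the cKO libraries, against 17.7, 33.5 and 20.6 FPKM in controls 1 to 3. These sums did not overlap, but the gap was narrow, and Crabp2 alone had 11.7 FPKM in cKO replicate 2. Of the 6 tested, 2 had a positive and 4 a negative difference (median -0.40), 0 were below every control in both cKO libraries and 0 passed in limma (0 at an unadjusted p under 0.05). Col1a1, Col1a2 and Col3a1 were marked in the authors' deposited table. For each of these collagen genes the groups overlapped and control replicate 2 was the highest library. The 11 radial glia genes summed to 1442 and 1530 FPKM in the cKO libraries, against 1392, 1935 and 1601 FPKM in controls 1 to 3, with overlap. Of these, 4 were below every control in both cKO libraries and 1 above, against 15.6% and 13.4% of all tested loci. Their median log2 difference was -0.25. The part of these lists in the Nxph4 values was not tested.

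**Figure D3:**
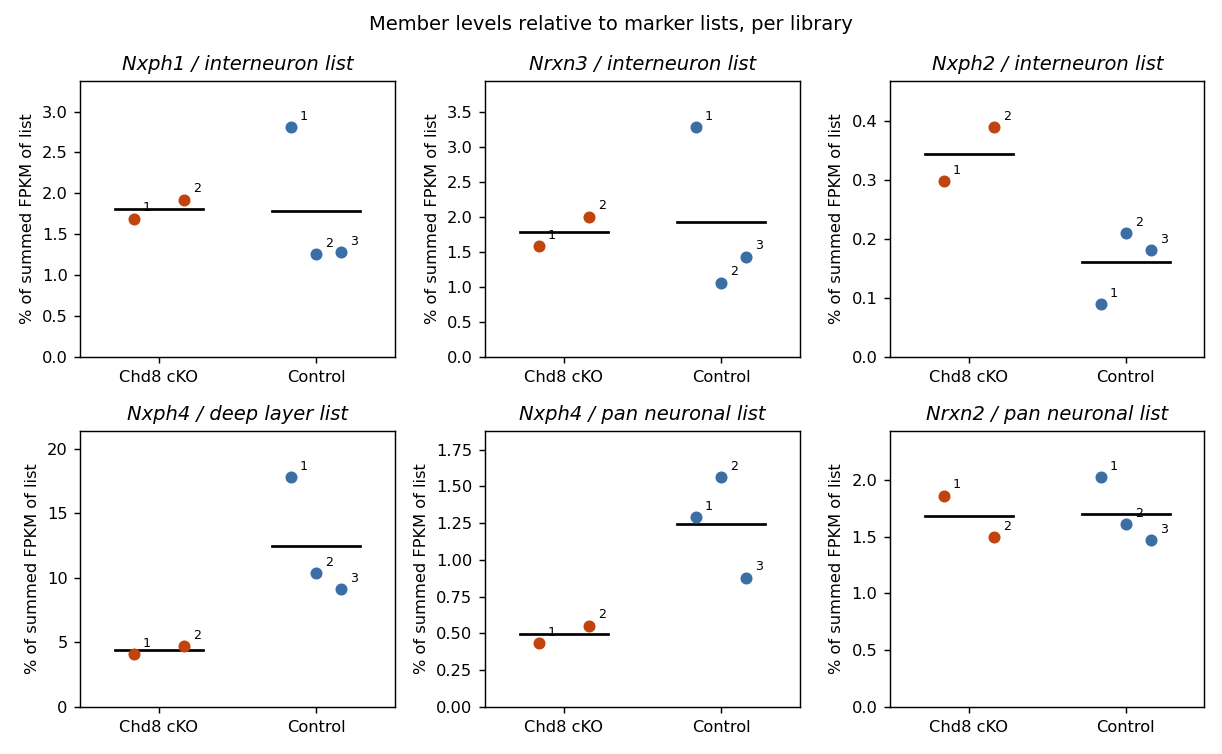
Level of a gene as a percentage of the summed FPKM of a marker list in the same library, for Chd8 cKO on the left and Control on the right of each panel, with the group mean as a line. Relative to interneuron genes, Nxph1 and Nrxn3 overlap between groups through control replicate 1 alone, at 2.81% and 3.28%, whereas Nxph2, and Nxph4 relative to deep-layer and pan-neuronal genes, do not.

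Control replicate 2 stood apart from the other controls in several of these genes and marker lists. Its values were the lowest of the 5 libraries for Nxph1 and Nrxn3 and the highest for Nxph3, and it had the highest sum of intermediate progenitor genes. Without it, the log2 difference was 0.58 for Nxph1, 1.32 for Nxph2, -1.26 for Nxph4 and 0.38 for Nrxn3. Control replicate 1, the c/+ library, had the highest Nxph4 and the lowest Nxph2. Its Cajal-Retzius genes summed to 244.5 FPKM, against 69.4 and 87.5 FPKM in controls 2 and 3. The listed genes did not share this height. Ebf3 had 75.5 FPKM in control replicate 1, against 2.70 and 4.49 FPKM in controls 2 and 3. Trp73 was lowest in control replicate 1, at 2.33 FPKM against 7.15 and 5.88 FPKM, and Reln had 28.9, 27.0 and 24.8 FPKM in controls 1 to 3. Without control replicate 1 the differences were -1.13 for Nxph4 and 1.08 for Nxph2. Microglial genes also lay apart between the groups, with 12 of 13 above every control in both cKO libraries, against 13.4% of all tested loci. Their sums were 128.7 and 125.9 FPKM in cKO, against 47.2, 61.3 and 52.6 FPKM in controls 1 to 3. The part of these markers in the values of the family was not tested.

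**Figure D4:**
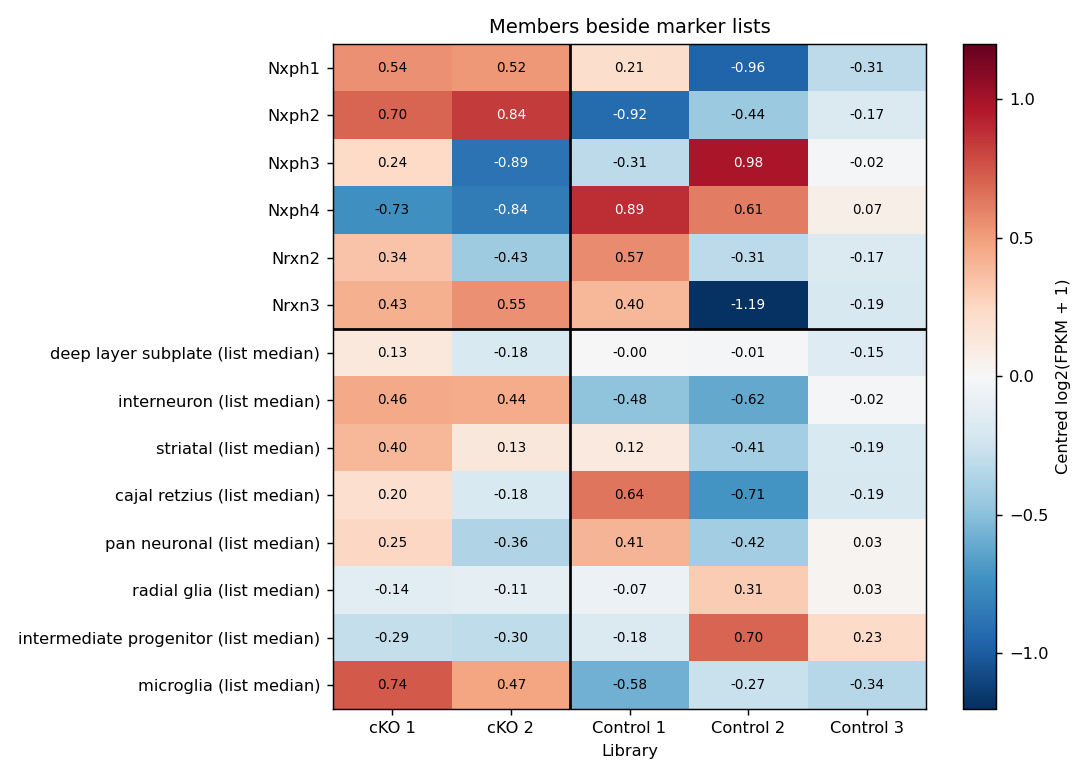
Colours and numbers give log2(FPKM + 1) minus its mean over the 5 libraries for each family gene (upper rows) and the median of that value over each marker list (lower rows), with cKO libraries on the left. The interneuron list is at 0.46 and 0.44 in cKO beside Nxph1 at 0.54 and 0.52, and the intermediate progenitor list is at -0.29 and -0.30 in cKO beside Nxph4 at -0.73 and -0.84. The controls differ in order. In controls 1 to 3 the interneuron list is at -0.48, -0.62 and -0.02 and Nxph1 at 0.21, -0.96 and -0.31. There the intermediate progenitor list is at -0.18, 0.70 and 0.23 and Nxph4 at 0.89, 0.61 and 0.07. A list median does not show the spread of its members: over the 5 libraries Nxph4 spans 1.73 log2 units, and the deep-layer genes Fezf2 and Sox5 span 1.90 and 1.88.

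The loci whose profile over the 5 libraries was most like that of Nxph4, by Euclidean distance between centred log2(FPKM + 1) values, were Kif26b, Col2a1, Scx, Msx1 and Ggnbp1, at distances of 0.336 to 0.537, where the median over all tested loci was 1.59. The likeness rests on 5 libraries. Kif26b, a kinesin family gene, had 3.62 and 2.26 FPKM in the cKO libraries, against 10.4, 7.87 and 5.97 FPKM in controls 1 to 3. Col2a1, a fibrillar collagen gene, had 10.9 and 10.8 FPKM in the cKO libraries, against 28.5, 34.7 and 19.6 FPKM in controls 1 to 3. Both had low cKO values and control replicate 3 as the lowest control, as Nxph4 had, which follows from their choice by likeness. Scx, a helix-loop-helix factor of tendon, and Msx1, a homeobox gene, averaged 0.622 ± 0.178 and 0.593 ± 0.0743 FPKM in cKO, against 2.84 ± 0.680 and 2.08 ± 1.08 FPKM in control.

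Genes of other neurexin ligands showed no common direction. They include the neuroligins (Nlgn), leucine-rich repeat proteins (Lrrtm), cerebellins (Cbln), C1q-like proteins (C1ql), latrophilins (Lphn), calsyntenins (Clstn), dystroglycan (Dag1) and the Fam19a proteins. Of the 25 listed genes 23 were tested, 11 had a positive and 12 a negative log2 difference, and the median was -0.03. None passed over all loci in limma (1 at an unadjusted p under 0.05, and 4 marked in the authors' deposited table, which were Cbln1, C1ql2, Clstn1 and Fam19a1). Fam19a1, a secreted neurexin ligand, averaged 3.63 ± 0.274 FPKM in cKO and 1.62 ± 0.919 FPKM in control, with a log2 difference of 0.89 (SE 0.34, adjusted p = 0.575 in limma). C1ql3, a secreted synaptic organiser, averaged 3.31 ± 0.245 FPKM in cKO and 1.69 ± 0.994 FPKM in control. Both were lowest in control replicate 2, as Nxph1 and Nrxn3 were.

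Lrrtm1, a postsynaptic adhesion protein, averaged 13.5 ± 2.69 FPKM in cKO and 18.4 ± 2.86 FPKM in control, and Igsf21, a ligand at inhibitory synapses, 19.3 ± 3.54 FPKM in cKO and 25.6 ± 4.17 FPKM in control (adjusted p = 0.575 for each in limma). In each of the pair both cKO libraries lay below every control. Of the 23 tested ligand genes, 2 were above every control in both cKO libraries and 2 below, against 13.4% and 15.6% of all tested loci. C1ql2, also a secreted organiser, had 0.321 and 0.221 FPKM in the cKO libraries, against 5.16, 0.131 and 0.278 FPKM in controls 1 to 3, so control replicate 1 alone set its group apart. The neuroligin genes Nlgn1 and Nlgn3 averaged 8.88 ± 0.738 and 22.1 ± 0.723 FPKM in cKO, against 7.53 ± 1.71 and 22.7 ± 2.86 FPKM in control, within the spread of the libraries.

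**Figure D5:**
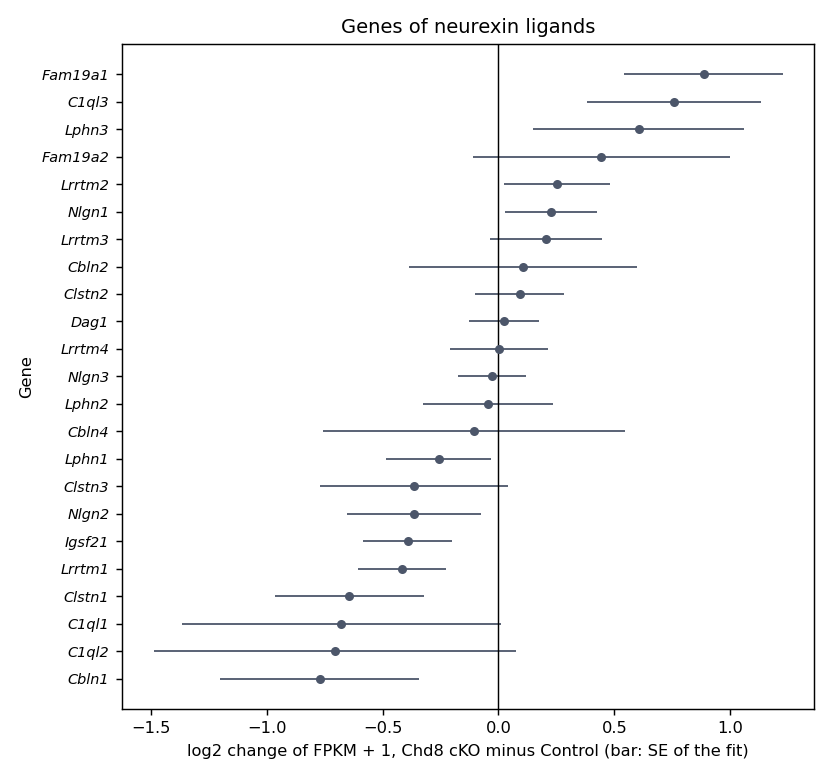
Log2 difference of FPKM + 1, Chd8 cKO minus Control, for the 23 tested genes of neurexin ligands (points) with the standard error of the fit (bars). The values fall on both sides of 0, with 11 positive and 12 negative, and Fam19a1 is the highest at 0.89.

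On the presynaptic side, the 15 tested loci of scaffold genes that bind neurexin tails or the release machinery behind them, with Rims1 at 2 loci, split into 8 positive and 7 negative differences (median 0.06). None passed in limma (1 at an unadjusted p under 0.05). That locus, which the authors' deposited table marked as well, was Caskin2, which encodes a scaffold protein related to the Cask-binding Caskin1, at 8.48 ± 0.552 FPKM in cKO and 13.96 ± 3.37 FPKM in control (adjusted p = 0.575 in limma). Lin7c, a member of the complex with Cask, averaged 61.8 ± 9.24 FPKM in cKO and 43.5 ± 13.2 FPKM in control, and Ppfia1 and Ppfia4, liprin genes of the active zone, 14.3 ± 0.443 and 2.97 ± 1.04 FPKM in cKO, against 16.7 ± 0.733 and 4.20 ± 0.384 FPKM in control. Of 6 genes of RNA-binding proteins that regulate alternative splicing in neurons, 3 had a positive and 3 a negative difference, none passed in limma, 0 had an unadjusted p under 0.05 and 0 were marked in the authors' deposited table. Ptbp2, a splicing repressor of immature neurons, averaged 126.2 ± 34.5 FPKM in cKO and 90.4 ± 10.7 FPKM in control, and Khdrbs2, which controls neurexin splicing, 10.8 ± 2.02 FPKM in cKO and 13.6 ± 1.59 FPKM in control.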

How the data were processed

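RNA of E14.5 cortex was analysed in 2 Chd8 cKO and 3 control libraries, grouped by title. The series' 6 ATAC-seq samples are not used here. Per the submitters' processing notes, the tools were TopHat, Cufflinks, CASAVA, Bowtie2 and MACS, with no role given, and the build was mm10. The annotation and the use of strand were not given in the sources used here. Per the file headers, the deposited table holds an FPKM value of each locus in each library, with group means by the authors. Per the file headers it also holds the authors' own comparison, with p-values, q-values, log2 fold changes and a score for the test statistic, and loci marked significant had q-values up to 0.0499. FPKM carries no counts: low values did not fall on whole reads (the commonest ratio to control replicate 1 held at most 56% of 216 loci under 0.05 FPKM, within 0.15 log2 units), so depth is unknown, and a count test was not run.

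Loci whose mean reached 1 FPKM were fitted as log2(FPKM + 1). The fit used limma 3.58.1 under R 4.3.3, an intensity trend, 3 residual degrees of freedom and Benjamini-Hochberg adjustment over 12672 loci. Library correlations ran from 0.880 to 0.933. On simulated data with the same spread and 12672 loci, this cKO against control test called 22% of loci changed 2-fold, 69% of those changed 4-fold and 2 unchanged loci. The members and gene lists were chosen with earlier results of these data known. Genes were named from Chd8, the members, up to 4 genes per list with the smallest unadjusted p, and the 5 loci nearest to Nxph4. C1ql2, Cbln1, Clstn1, Nlgn1, Nlgn3, Ctgf, Ebf3 and the other list genes named for the authors' marks, such as Fezf2 and Sox5, were named after their values were seen, and lists are described by counts and medians. For the remaining gene lists the median log2 difference was 0.003 for Cajal-Retzius, -0.07 for pan-neuronal, -0.25 for radial glia, 1.01 for microglial, 0.06 for vascular and 0.12 for erythroid genes. Latrophilin symbols were matched through RefSeq synonyms. Promoter windows and coordinates are from RefSeq on GRCm38.p6. Alternatives changed the pseudocount, filter, trend, scaling, replicate block and each library in turn.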

Additional observations from a re-analysis of the deposited data

How the results depend on the processing

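The log2 differences of Nxph1, Nxph2, Nxph4 and Nrxn3 kept their sign under all 11 alternatives, or 10 for Nxph2, which the filter at 5 FPKM removed. They ran from 0.58 to 1.17 for Nxph1, from 1.08 to 1.89 for Nxph2, from -1.54 to -1.13 for Nxph4 and from 0.38 to 1.18 for Nrxn3. For these genes both cKO libraries lay on the same side of every control, so only the rescaling could have turned a sign. The kept signs are therefore no further evidence of a difference, and only the ranges describe its size. Nxph3 ran from -1.10 to 0.023 and Nrxn2 from -0.46 to 0.31 when libraries were left out in turn. Turned signs were found without cKO replicate 2 (0.023 for Nxph3, 0.31 for Nrxn2) and without control replicate 1 (0.196 for Nrxn2), and the cause was not tested. Against the 2 loci called higher and 4 called lower among all loci, 1 and 4 were called with a filter at 5 FPKM, 3 and 1 without a filter and 2 and 2 without the intensity trend. Leaving out each library in turn gave 2 to 29 higher and 2 to 12 lower. The higher calls were 23 without cKO replicate 1, 29 without cKO replicate 2 and 4 without control replicate 2. The lower calls were 2 and 8 without cKO replicates 1 and 2, and 12, 10 and 7 without control replicates 1 to 3. With 1 cKO library left, that library is assumed to vary like the controls.

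With the replicate number as a block, 1 locus was called higher and 2 lower, with differences of -1.54 for Nxph4 and 1.45 for Nxph2. The deviations of same-numbered libraries correlated at -0.07 for number 1 and -0.11 for number 2, and the labels name nothing that the numbers share. List medians lay near 0 and turned sign with the block (-0.031 for presynaptic scaffolds, 0.025 for splicing regulators), with log2(FPKM + 0.1) (0.0069 for ligands) and with median-ratio scaling (0.013 for splicing regulators). With libraries left out in turn they ran from -0.22 to 0.15 for ligands, from -0.24 to 0.28 for scaffolds and from -0.15 to 0.15 for splicing regulators. No gene of these 3 lists was called under any alternative. Relative to the interneuron list, added after seeing the data, the differences of log2 percentages, without an added 1, were 0.12 for Nxph1, 0.06 for Nrxn3, 1.17 for Nxph2, -1.42 for Nxph3, -2.19 for Nxph4 and -0.90 for Nrxn2. Without control replicate 1 they were 0.50, 0.53, 0.81, -1.63, -1.93 and -0.55 in the same order. The deep-layer and pan-neuronal scales were also added after seeing the data.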
